A study of Homo sapiens with 20 samples.

Results

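The late change in gene expression in low leucine was examined in THLE-3 cells, an established human line that was derived from adult liver epithelium by introducing the SV40 large T antigen. The series holds 20 arrays in 10 groups, with cells in 0.1 mM (low) or 2.0 mM (high) leucine taken at 0, 30, 60, 120 and 480 min, and each group has 1 array from a first and 1 from a second experiment. The comparison rests on 8 of the 20 arrays, chosen by their titles: the 2 low leucine arrays at 480 min against the 6 low leucine arrays at 30, 60 and 120 min, within experiment. It asks what changed late in cells that stayed in 0.1 mM leucine, without using the 0 min arrays as the starting point. The 8 high leucine arrays at the same times served for comparison. How cells were held before 0 min, whether medium was changed then, and whether the first and second experiment were separate cultures is not stated in the labels. The p-values therefore reflect only how much these samples vary, which may be technical. All 20 arrays share the immortalised line.

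Leucine is an essential amino acid and an input to the mTORC1 growth pathway. When amino acids are scarce, uncharged tRNA activates the kinase GCN2, which raises translation of the transcription factor ATF4 and the genes it controls, among them amino acid transporters, tRNA synthetases and stress regulators. A second stress programme is run by NRF2, a transcription factor released from its inhibitor KEAP1 by electrophiles and oxidants, which binds the antioxidant response element and raises genes of glutathione and thioredoxin metabolism. The unfolded protein response raises chaperones of the endoplasmic reticulum, and the zinc sensor MTF1 raises metallothioneins and the zinc exporter SLC30A1 when free zinc is high.

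The median deposited intensity lay between 433.2 and 492.9 arbitrary units on the 20 arrays. Of 22215 probe sets, 13329 passed the filter on dim signal, and these stood for 8280 genes that could be named. Of the markers among the probe sets used here, 0 of 9 for hepatocytes, 4 of 7 for biliary and simple epithelium (all keratins), 5 of 10 for stellate cells and fibroblasts and 0 of 8 for endothelium and blood lay above the 90th percentile of all probe sets, with ALB, which encodes albumin, at the 9.92th percentile. The highest hepatocyte marker was CYP3A4, at the 90th percentile, followed by APOA1 at 67.1, and 6 of the 9 passed the filter on dim signal. Precision is limited by the small number of arrays.

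At 480 min in low leucine, 3 of 18 NRF2 targets, 2 of 21 genes of endoplasmic reticulum stress (DNAJB9 and MANF) and 2 of 18 genes of cholesterol synthesis were higher than at 30 to 120 min. The zinc exporter SLC30A1, the metallothionein MT1E, 2 of 29 mitotic genes and 2 of 19 splicing genes were lower. A probe set was called where its adjusted p from the limma fit with the experiment as a block was under 0.05. Of 13329 probe sets 106 were called (0.795%), 45 higher and 61 lower. At an unadjusted p under 0.05 there were 2283. By gene, 25 of 8280 were higher (0.302%) and 39 lower (0.471%). The changes were small: the median size among the called probe sets was 0.29 on the log2 scale, from 0.17 to 0.91, and 7 exceeded 0.5. The 2 experiments moved together only loosely, since 60.1% of all probe sets changed in the same direction in both, with a correlation of 0.33 over probe sets (these are not independent of each other).

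**Figure D1:**
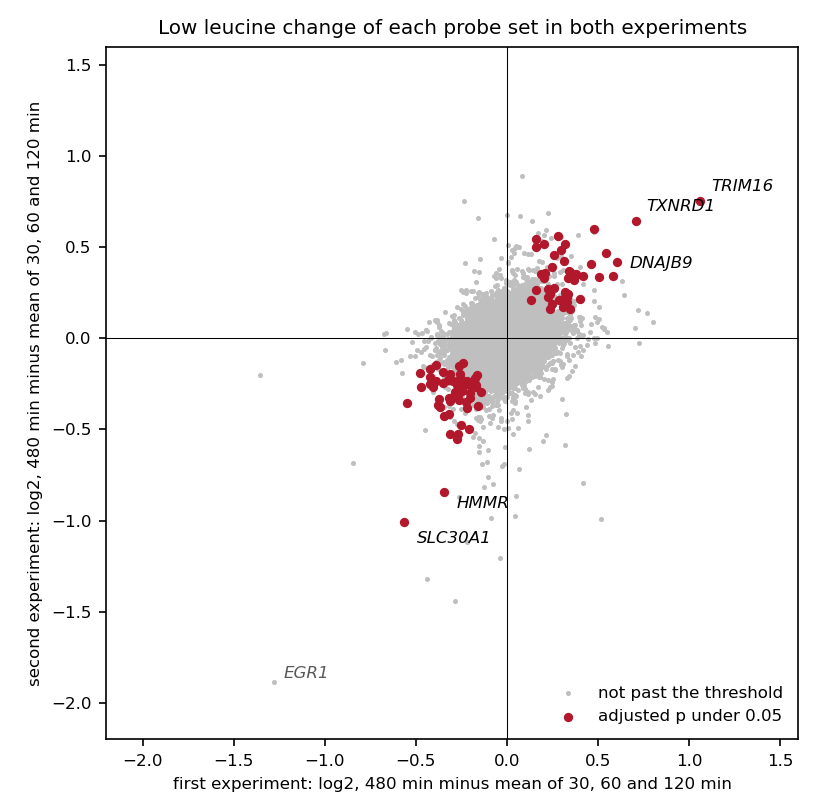
Change from 30 to 120 min to 480 min in low leucine for each of 13329 probe sets, on the log2 scale, in the first experiment (x axis) and the second (y axis). Red points are the 106 probe sets past the threshold; TRIM16 lies highest on both axes among them, and EGR1, lowest in the second experiment at -1.89, was not called.

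The count depended on the model and on single arrays. Without the experiment term 1 probe set of 13329 was called (0.0075%), that of TRIM16, with 795 at an unadjusted p under 0.05. Without the 0 min arrays 319 of 13329 were called, 125 higher and 194 lower, with all 106 among them. In that fit 6 of 18 NRF2 targets rose. Falls were those of 6 of 19 splicing, 3 of 17 branched-chain and 2 of 19 NF-kB and cytokine genes. Without the low leucine 480 min array of the first experiment 24 were called, 15 of them among the 106, and without that of the second 21, with 12 among the 106. In the same order, the counts were 36 and 28 without an array at 30 min (34 and 28 among the 106), 28 and 66 at 60 min (28 and 60), and 18 and 49 at 120 min (18 and 44). Without either high leucine 480 min array the count was 151, and without a 60 min array of high leucine it was 68 or 69.

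The smallest adjusted p-values were those of TXNRD1 and a probe set of NQO1, both NRF2 targets. Of 26 listed genes, 23 were among the probe sets used here and 18 passed the filter. The median change of these 18 was 0.08 beside 0.00 over all genes. In low leucine 3 of them rose and 0 fell, where 0.302% of all genes rose and 0.471% fell. The 3 were TXNRD1, NQO1 and GCLM, and TRIM16, a ubiquitin ligase that was not on the list, showed the largest rise of any gene. In RNA from bulk culture, more cells with a transcript and more transcript per cell cannot be told apart.

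TXNRD1 encodes cytosolic thioredoxin reductase, which keeps thioredoxin reduced with electrons from NADPH. Its intensity in the first experiment was 3347, 3361 and 3354 at 30, 60 and 120 min and 5679 at 480 min. In the second experiment it was 3748, 4183 and 4605, and then 6647. The 480 min array lay above all earlier arrays of its experiment, including those at 0 min with 3450 and 3778. The change was 0.68 ± 0.05 (log2 ± SE, n = 2 arrays at 480 min and 6 before; adjusted p = 9.2e-06), with 0.71 in the first and 0.64 in the second experiment.

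GCLM, the regulatory subunit of the enzyme that starts glutathione synthesis, was at 992.9, 972.9 and 1133 and then 1548 in the first experiment. In the second it was at 932.2, 943 and 982.4 and then 1237. Both 480 min arrays were higher than all earlier ones of their experiment, and the change was 0.42 ± 0.05 (adjusted p = 0.0023). NQO1, a quinone reductase widely used as a readout of NRF2, was at 1095, 1129 and 1189 and then 1765, and in the second experiment at 1099, 1239 and 1198 and then 1665. It rose by 0.51 ± 0.06 (adjusted p = 0.002), and its other 2 probe sets were called too, at 0.54 and 0.39. TXNRD1 and NQO1 kept their calls in all 16 fits that left out 1 array, with a highest adjusted p of 0.00056 and 0.038. GCLM lost its call without the first 480 min array in low leucine (adjusted p = 0.059). Without the experiment term TXNRD1, NQO1 and GCLM did not pass, at adjusted p of 0.061, 0.14 and 0.54.

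TRIM16 was at 556.8, 512.5 and 615.6 and then 1368 in the first experiment, and at 666.4, 666.1 and 612.6 and then 1202 in the second. The 480 min arrays were far above all others, and the 0 min arrays, at 601.2 and 592.5, were close to the early ones. The change of 0.91 ± 0.09, which is 1.88-fold, was called in all 34 alternative settings (adjusted p = 0.00012, and 0.013 without the experiment term).

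The start regions of TXNRD1 and GCLM are shown because both genes rose and both carry letters of the antioxidant response core. The sequences are those of RefSeq on GRCh38.p14, 250 bases before to 50 after the start, read along the strand of the gene, at chr12:104215529-104215828 (plus strand) for TXNRD1 and chr1:93909381-93909680 (minus strand) for GCLM. Capitals mark matches to TGACNNNGC on either strand, a search chosen after the expression values were seen.
TXNRD1: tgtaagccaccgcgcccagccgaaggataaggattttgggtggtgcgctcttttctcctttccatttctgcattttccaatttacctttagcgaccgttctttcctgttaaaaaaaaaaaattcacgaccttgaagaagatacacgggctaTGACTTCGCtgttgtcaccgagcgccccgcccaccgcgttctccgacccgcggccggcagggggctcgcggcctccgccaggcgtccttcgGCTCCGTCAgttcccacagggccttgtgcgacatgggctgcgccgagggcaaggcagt
GCLM: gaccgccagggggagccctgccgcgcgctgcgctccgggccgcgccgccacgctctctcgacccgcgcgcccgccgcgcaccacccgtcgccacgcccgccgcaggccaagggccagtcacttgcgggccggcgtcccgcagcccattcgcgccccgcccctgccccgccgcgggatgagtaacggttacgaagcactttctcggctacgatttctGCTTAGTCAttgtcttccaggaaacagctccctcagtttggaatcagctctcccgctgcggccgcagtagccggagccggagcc
TXNRD1 held 2 matches, whose first bases lay at -99 and -8 from the start, and GCLM held 1, at -34. Of 27305 promoters of the same length, 13.6% held a match and 1.14% held 2 or more. The same window of NQO1 and of TRIM16 held 0 matches, which says only that these letters were not in those 300 bases.

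By their brightest probe sets, the other 15 kept members of the NRF2 list were not called. TKT, a pentose phosphate enzyme that helps supply NADPH, changed by 0.36 ± 0.08 (adjusted p = 0.052), and FTL, the ferritin light chain, by 0.14 ± 0.03 (adjusted p = 0.06). In high leucine both rose, TKT by 0.39 (adjusted p = 0.007) and FTL by 0.14 (adjusted p = 0.016). HMOX1, haem oxygenase and a classical target of oxidant stress, changed by -0.01 ± 0.04, AKR1C1 by 0.00 ± 0.07 and GCLC, the catalytic partner of GCLM, by 0.03 ± 0.06. NFE2L2, the gene of NRF2 itself, was at -0.16 ± 0.10. Outside the list, PRDX1, a peroxiredoxin that thioredoxin recycles, rose by 0.17 ± 0.04 (adjusted p = 0.039). SQSTM1, an autophagy receptor that binds KEAP1, rose by 0.29 ± 0.05 (adjusted p = 0.012) on a probe set other than its brightest.

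SLC7A11, the cystine importer that feeds glutathione synthesis and answers to both NRF2 and ATF4, was at 685.3, 667.4 and 767.2 and then 1217 in the first experiment. In the second it was at 1028, 1068 and 1054 and then 1253. The 480 min arrays were the highest, by a wider margin in the first experiment, and the change of 0.44 ± 0.11 did not pass (adjusted p = 0.061). A second, dimmer probe set of the gene was called, at 0.46 ± 0.08 (adjusted p = 0.028). In high leucine these probe sets fell, by 0.78 and 0.69, and the difference between leucine levels of 1.22 ± 0.15 passed (adjusted p = 0.00055).

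The rises of TXNRD1, NQO1, GCLM and TRIM16 were also seen in high leucine. There they changed by 0.55, 0.50, 0.46 and 0.92, each called, and the differences between leucine levels did not pass, with adjusted p from 0.53 to 0.99. The difference for TRIM16 was -0.02 ± 0.12 and for TXNRD1 0.12 ± 0.07. PRDX1 differed, since it rose by 0.51 in high leucine (adjusted p of the difference = 0.0039). Of the 18 list members 5 rose and 2 fell in high leucine, where 4.21% of all genes rose and 4.26% fell. The fall of SLC7A11 in high leucine is 1 of those 2, and NFE2L2, at -0.37, is the other.

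**Figure D2:**
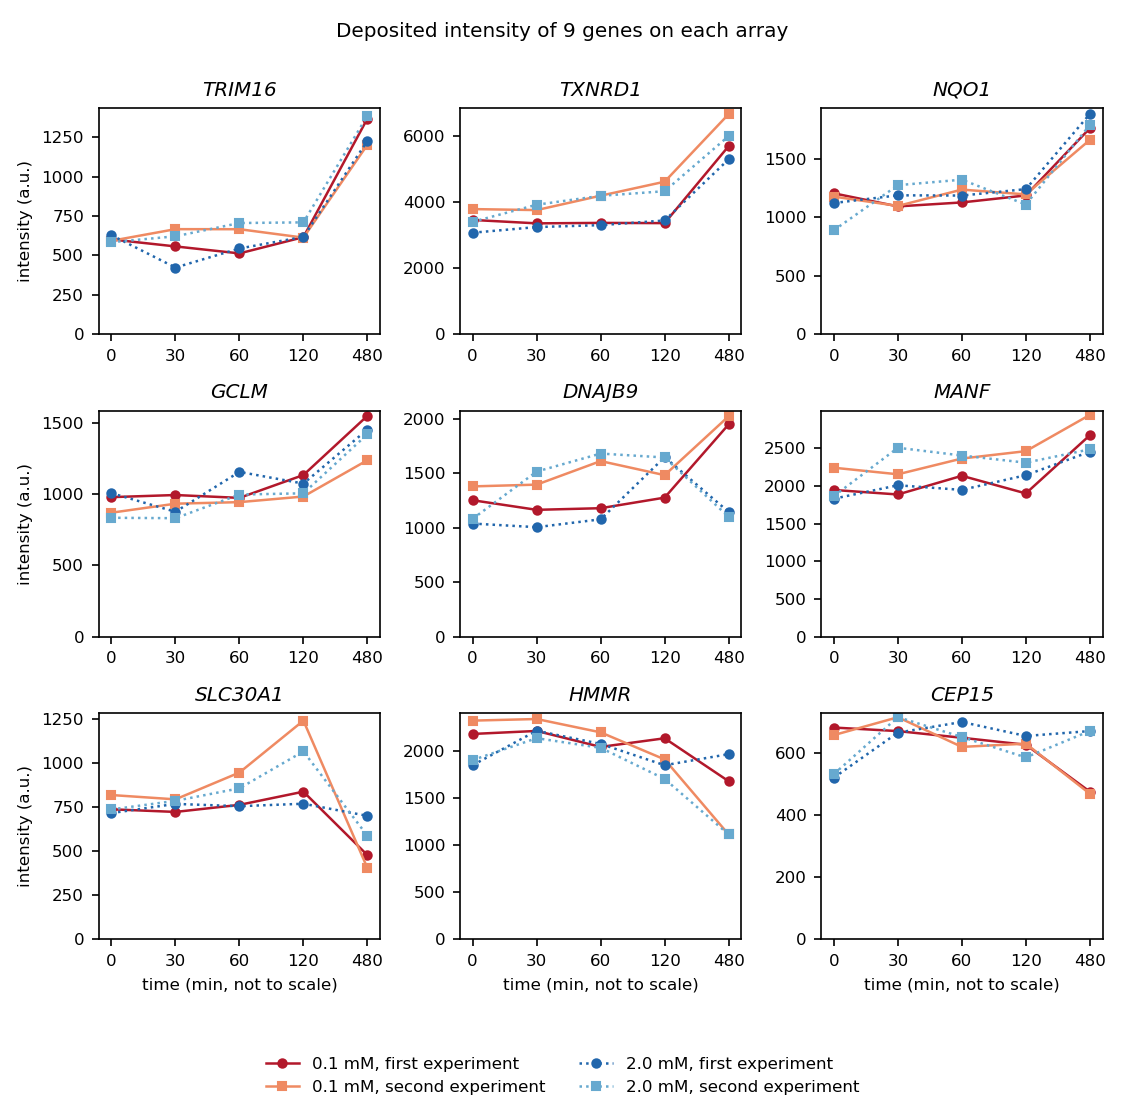
Deposited intensity (arbitrary units, axis from 0) of 9 genes on each of the 20 arrays, against time on an axis that is not to scale; solid red lines are low and dotted blue lines high leucine, circles the first and squares the second experiment. TRIM16, TXNRD1, NQO1 and GCLM are highest at 480 min in all 4 series, DNAJB9 in low leucine only, and CEP15 is lowest at 480 min in low leucine only.

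Of 24 genes of the endoplasmic reticulum stress list, 21 passed the filter, and 2 rose and 0 fell, with a median of 0.05. Over all genes 0.302% rose in low leucine. DNAJB9, a co-chaperone of the reticulum, was at 1163, 1178 and 1275 and then 1946 in the first experiment and at 1394, 1610 and 1481 and then 2021 in the second. Both late arrays were above all earlier ones, and the change was 0.51 ± 0.09 (adjusted p = 0.028). MANF, a secreted factor of the stressed reticulum, was at 1887, 2135 and 1901 and then 2673, and in the second experiment at 2155, 2364 and 2462 and then 2943. It rose by 0.37 ± 0.06 (adjusted p = 0.0085).

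The central genes of the same response did not pass. HSPA5, the main chaperone of the reticulum, changed by 0.13 ± 0.07, XBP1, its transcription factor, by 0.01 ± 0.07, and HERPUD1, a degradation factor, by 0.09 ± 0.07. In high leucine these 3 fell by 0.38, 0.56 and 0.52. Of the 21 genes 5 fell there, where 4.26% of all genes fell. The change differed between leucine levels for 4, where it did so for 1.39% of all genes. DNAJB9 was among the 4: its change in high leucine was -0.31 ± 0.09 (adjusted p = 0.058), and the difference of 0.82 ± 0.13 passed (adjusted p = 0.0057). For MANF, at 0.12 in high leucine, the difference did not pass (adjusted p = 0.16). DNAJB9 lost its low leucine call in 7 of 16 fits that left out 1 array, each time a low leucine array, with a highest adjusted p of 0.18. MANF lost it without either 480 min array, at up to 0.084.

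Of 18 cholesterol synthesis genes kept, 2 rose and 0 fell in low leucine, where 0.302% of all genes rose. The median was 0.04. In high leucine 10 rose, with a median of 0.24, where 4.21% of all genes rose. SQLE, squalene epoxidase, was at 1089, 981.5 and 1111 and then 1316 in the first experiment and at 1008, 1032 and 1028 and then 1441 in the second. MSMO1, a sterol methyl oxidase, was at 965.6, 983.6 and 1125 and then 1224, and in the second experiment at 824.9, 814.8 and 860.5 and then 1251. The late arrays were above the early ones in both experiments, more so in the second. Both genes changed by 0.36 ± 0.07 (adjusted p = 0.031). Of the dimmer probe sets of SQLE, 1 was called at 0.28 (adjusted p = 0.031) and 1, at 0.14, was not (adjusted p = 0.19).

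The sterol rises were smaller in low than in high leucine. SQLE rose by 0.86 and MSMO1 by 1.02 in high leucine, and the low minus high differences were -0.50 ± 0.10 (adjusted p = 0.018) and -0.66 ± 0.10 (adjusted p = 0.0025). IDI1, which makes an isoprenoid building block, changed by 0.16 in low and rose by 0.75 in high leucine, also with a difference that passed (adjusted p = 0.00057). INSIG1, which retains the sterol sensor in the reticulum, changed by 0.28 ± 0.13 in low leucine (adjusted p = 0.28). The low leucine calls of SQLE and MSMO1 were each lost in 7 of 16 fits that left out 1 array, with highest adjusted p of 0.21 and 0.27, both without the second 480 min array.

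Other rises were of genes with varied roles. TGFBR2, a receptor of transforming growth factor beta, was at 1436, 1424 and 1599 and then 1923 in the first experiment and at 1389, 1495 and 1747 and then 2234 in the second. It rose by 0.42 ± 0.07 (adjusted p = 0.015) and by 0.59 in high leucine. A second, dimmer probe set of TGFBR2 changed by 0.17 in low leucine and was not called (adjusted p = 0.2). TNFRSF12A, a receptor of the tumour necrosis factor family, rose by 0.38 ± 0.07, CAVIN1, a coat protein of caveolae, by 0.37 ± 0.07, and PHLDA2, an imprinted growth regulator, by 0.35 ± 0.07. CBLB, a ubiquitin ligase, rose by 0.35 ± 0.06, with 0.16 in the first and 0.55 in the second experiment, and KIFC3, a motor that moves towards microtubule minus ends, by 0.32 ± 0.05 (adjusted p = 0.0059). In the second experiment TNFRSF12A was already at 3774 at 120 min, close to its 3862 at 480 min. A dimmer probe set of CAVIN1 changed by 0.23 ± 0.11 and was not called (adjusted p = 0.3).

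KRT7, a keratin of bile duct epithelium, rose by 0.43 ± 0.09 (adjusted p = 0.037), from 1377, 1386 and 1694 to 2126 in the first experiment and from 3800, 4516 and 4991 to 5773 in the second. A dimmer probe set of the gene changed by 0.08 ± 0.06. Of the other simple epithelial keratins, KRT8 changed by 0.23 ± 0.08, KRT19 by 0.14 ± 0.06 and KRT18 by 0.09 ± 0.05, none called. So 1 of 4 markers of that list rose, where 0.302% of all genes rose. None of 6 hepatocyte, 9 stellate and fibroblast or 5 endothelium and blood markers kept was called, with medians of 0.05, 0.01 and -0.03. Further probe sets that rose were of TPM1, a tropomyosin, at 0.34, of MAP4, which binds microtubules, at 0.28 and 0.23, of LITAF at 0.36 and of PDLIM4 at 0.42, and these were not the brightest of their genes. Without the second 480 min array TGFBR2 and KIFC3 lost their calls (adjusted p = 0.17 and 0.10), and TGFBR2 also without the first 120 min array (0.053). CAVIN1, TNFRSF12A, PHLDA2, CBLB and KRT7 lost theirs in 5 to 9 of 16.

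Among the genes called, the largest fall was that of SLC30A1, which exports zinc from the cytosol and is induced by zinc through MTF1. EGR1, JUNB and FOS had more negative changes that were not called. Its intensity was 723.1, 763.3 and 838.2 and then 477.7 in the first experiment. In the second it was 794.6, 946.9 and 1242, and then 404.5. Both 480 min arrays lay below all other arrays of their experiment, and in the second the fall followed the highest value, at 120 min. The change was -0.79 ± 0.10 (adjusted p = 0.0023), with -0.56 in the first and -1.01 in the second experiment, which is 1.72-fold lower.

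The start region of SLC30A1 is shown because it had the largest fall among the genes called, at chr1:211579112-211579411 (minus strand), from RefSeq on GRCh38.p14. Capitals mark matches to TGCNCNC, the core of the metal response element, on either strand, likewise searched after the values were seen.
SLC30A1: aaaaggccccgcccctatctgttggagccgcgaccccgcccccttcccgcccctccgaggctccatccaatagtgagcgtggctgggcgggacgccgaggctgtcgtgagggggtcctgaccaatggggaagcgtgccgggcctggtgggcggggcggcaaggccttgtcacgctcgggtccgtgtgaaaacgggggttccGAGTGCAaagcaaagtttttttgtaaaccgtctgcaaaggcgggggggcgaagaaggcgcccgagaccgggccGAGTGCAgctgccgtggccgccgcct
The 2 matches began at -49 and 25 from the start. Among all 27305 promoters 55.2% held a match and 23.8% held 2 or more, so the letters are common. MT2A and MT1H held 8 matches each and MT1X held 4, where 2.78% of promoters held 4 or more.

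Among the metallothioneins, small cysteine-rich proteins that bind zinc and copper, MT1E fell. Of 9 genes on the list of metallothioneins and zinc handling that were kept, 2 fell, SLC30A1 and MT1E, and 0 rose. The median was -0.15, and over all genes 0.471% fell. MT1E was at 8840, 8697 and 9167 and then 6844 in the first experiment and at 9215, 9371 and 11050 and then 8657 in the second. The late arrays were below these early ones in each experiment, and the change was -0.29 ± 0.06 (adjusted p = 0.032). At 0 min in low leucine MT1E was at 8712 in the first and 8603 in the second experiment. In the second, the late array was therefore close to the 0 min level. A second probe set of MT1F was called too, at -0.37 ± 0.07 (adjusted p = 0.029), from 1582, 1394 and 1680 to 1079 in the first experiment and from 5618, 5800 and 6554 to 4834 in the second.

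The other metallothioneins did not pass. MT1F by its brighter probe set was at -0.26 ± 0.07, MT1H at -0.17 ± 0.08, MT1G at -0.15 ± 0.07, MT2A at -0.14 ± 0.08 and MT1X at -0.11 ± 0.08. All 5 were more negative in the first experiment, from -0.20 to -0.39, than in the second, from -0.13 to 0.04. All but 1 of the metallothionein probe sets kept carry the suffix that the array's maker gives to probes shared between similar genes, so the signal of 1 paralog can enter that of another. The exception, a dimmer probe set of MT1G, was at 0.18 ± 0.10 (adjusted p = 0.37), opposite in sign to the brighter one, and a second MT1E probe set was at -0.11. In high leucine SLC30A1 changed by -0.31 ± 0.10 (adjusted p = 0.07) and the 6 metallothioneins by 0.01 to 0.12. The differences between leucine levels did not pass for SLC30A1 (-0.48 ± 0.14, adjusted p = 0.13) or MT1E (-0.30 ± 0.08, adjusted p = 0.091). SLC30A1 lost its call without the second 480 min array (adjusted p = 0.068) and without the experiment term (0.061), and MT1E in 6 of 16 fits that left out 1 array.

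Changes of mitotic genes were mostly below 0 in low leucine, though few passed. Of 29 kept, 2 fell and 0 rose, where 0.471% of all genes fell. Of the 29 changes 26 were below 0, and the median was -0.13, with -0.04 in the first and -0.24 in the second experiment. HMMR, a receptor of hyaluronan that also acts at the spindle, was at 2217, 2047 and 2139 and then 1682 in the first experiment and at 2344, 2202 and 1914 and then 1115 in the second. It fell by 0.59 ± 0.12 (adjusted p = 0.038), and a second probe set fell by 0.40. BIRC5, survivin, was at 1886, 2021 and 1998 and then 1788, and in the second experiment at 1839, 2142 and 1950 and then 1455. It fell by 0.26 ± 0.06 (adjusted p = 0.038), and its other 2 probe sets, at -0.13 and -0.12, were not called.

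The rest of the list was not called. CCNB2, a mitotic cyclin, changed by -0.37 ± 0.10 (adjusted p = 0.086), KIF11, a spindle motor, by -0.20 ± 0.06 (adjusted p = 0.095), TOP2A by -0.24 ± 0.09, CDK1 by -0.09 ± 0.08 and MKI67 by 0.04 ± 0.05. DEPDC1, a mitotic gene outside the list, was at 964.5, 1015 and 996.2 and then 771.6 in the first experiment and at 799.5, 959.5 and 847.2 and then 608.1 in the second, a fall of 0.37 ± 0.06 (adjusted p = 0.012). CHEK1, the checkpoint kinase of replication stress, fell by 0.24 and 0.21 on its called probe sets, and RAD51C, of recombination repair, by 0.27 ± 0.05. CCNE2, a cyclin of S phase entry, fell by 0.30 ± 0.06 on a probe set other than its brightest. On that probe set the difference between leucine levels passed (adjusted p = 0.0096). Of the 27 DNA replication genes kept from their list 0 were called, with a median of -0.05. ORC3, an origin recognition subunit outside the list, fell by 0.23 ± 0.05 (adjusted p = 0.037), and by 0.17 in high leucine (adjusted p = 0.042).

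High leucine differed for some of these. The mitosis list had a median of 0.02 there, with 1 rise, CCNA2 at 0.28, and 0 falls. DEPDC1 changed by 0.05 in high leucine and the difference of -0.42 ± 0.08 passed (adjusted p = 0.02). For HMMR, at -0.41 in high leucine, and BIRC5, at 0.02, the differences did not pass (adjusted p = 0.75 and 0.09). The calls of HMMR and BIRC5 were lost in 14 and 12 of 16 fits that left out 1 array, with a highest adjusted p of 0.31 and 0.30, both without the second 480 min array in low leucine. DEPDC1 lost its call without either of the 480 min arrays, at up to 0.10.

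Splicing factors formed the next group of falls. Of 19 SR proteins and splicing kinases kept, 2 fell and 0 rose in low leucine, where 0.471% of all genes fell. The median was -0.13. In high leucine 4 fell, with a median of -0.12, where 4.26% of all genes fell. SRSF5, an SR protein, was at 3061, 3033 and 3193 and then 2391 in the first experiment and at 2235, 2683 and 2904 and then 1948 in the second. It fell by 0.37 ± 0.06 (adjusted p = 0.015), and a second probe set fell by 0.39. CCNL1, a cyclin of transcription and splicing, was at 856.8, 833.1 and 828 and then 642.3, and in the second experiment at 861.3, 884.4 and 811.2 and then 704.9, a fall of 0.28 ± 0.05 (adjusted p = 0.017).

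For these 2 genes the 0 min arrays were low as well. SRSF5 was at 2703 and 2050 and CCNL1 at 671.4 and 749.6 at 0 min, so that 480 min differed from 0 min by -0.14 and -0.06 only. SREK1, a splicing regulator, fell by 0.31 ± 0.07 (adjusted p = 0.037) and BCLAF1, an RNA-binding factor with SR-like repeats, by 0.35 ± 0.07 (adjusted p = 0.035), with 2 of its 4 probe sets called. Probe sets other than the brightest fell for SRSF7, by 0.33, and SRSF3, by 0.27 and 0.23, and both probe sets of PAPOLA, the nuclear poly(A) polymerase, that fell did so by 0.29 and 0.25. SRSF5, CCNL1, SREK1 and BCLAF1 fell in high leucine too, by 0.42, 0.28, 0.29 and 0.47, and the differences between leucine levels were from -0.02 to 0.11, none past the threshold. SRSF5 lost its low leucine call without either 480 min array, at up to 0.10, CCNL1 in 3, BCLAF1 in 12 and SREK1 in 13 of 16 fits that left out 1 array.

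Several falls were of genes with no list in common. CEP15, a small centrosomal protein, was at 669.4, 647.9 and 625.5 and then 474.6 in the first experiment and at 714, 618.6 and 629 and then 467.9 in the second. It fell by 0.37 ± 0.05 (adjusted p = 0.0027), with nearly the same change in both experiments, against 0.01 ± 0.05 in high leucine, a difference that passed (adjusted p = 0.014). MED4, a Mediator subunit, fell by 0.31 ± 0.05, and CCL2, a chemokine that attracts monocytes, by 0.34 ± 0.07. Both differed from high leucine, at adjusted p of 0.034 and 0.049. STAR, which carries cholesterol into mitochondria, fell by 0.35 ± 0.07, from 1231, 932.5 and 1037 to 789 in the first experiment and from 400.3, 412.3 and 396.9 to 290.8 in the second.

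NUP43, of the nuclear pore, fell by 0.34 ± 0.07, ICE2, of transcription elongation, by 0.32 ± 0.05, and the sugar transporter gene SLC35A5 fell by 0.41 ± 0.08. LACTB2 and AMZ2, both hydrolases, fell by 0.30. CEP15 lost its call without the second 480 min array (adjusted p = 0.056), MED4 in 3, ICE2 in 2 and NUP43, LACTB2, SLC35A5 and CCL2 in 6 each, AMZ2 in 5 and STAR in 13 of 16 fits that left out 1 array. The difference between leucine levels was lost in 3 of 16 such fits for CEP15, 12 for MED4 and 14 for CCL2.

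Of 17 genes of the breakdown of leucine and the other branched-chain amino acids, 1 fell and 0 rose by their brightest probe sets. Over all genes 0.471% fell in low leucine. DLD, the dehydrogenase subunit shared with pyruvate and 2-oxoglutarate dehydrogenase, was at 2599, 2560 and 2526 and then 2232 in the first experiment and at 2468, 2475 and 2379 and then 1877 in the second, a fall of 0.26 ± 0.05 (adjusted p = 0.032) that was lost in 8 of 16 fits with 1 array left out. It fell by 0.37 in high leucine. ALDH6A1, an enzyme of valine breakdown, fell by 0.26 ± 0.06 (adjusted p = 0.043) in low leucine on a probe set other than its brightest. BCAT1 and BCAT2, the cytosolic and mitochondrial transaminases that start leucine breakdown, changed by 0.10 ± 0.06 and -0.17 ± 0.06 and were not called. Of 19 genes of mTORC1 and leucine sensing, 0 were called in low and 0 in high leucine, with medians of 0.03 and -0.01.

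By their brightest probe sets, no genes of the amino acid response were called in low leucine; the dimmer probe set of SLC7A11 given above was. Of 44 listed genes 39 passed the filter, and 0 rose and 0 fell, where 0.302% of all genes rose and 0.471% fell. The median was -0.02, with a range from -0.30 to 0.44. ATF4 was at 5032, 5180 and 4980 and then 5281 in the first experiment and at 4898, 5029 and 5565 and then 4846 in the second. The 480 min array lay just above the early ones in the first experiment and just below them in the second. The change was -0.02 ± 0.06 (adjusted p = 0.9). TRIB3, a pseudokinase that ATF4 induces, changed by 0.07 ± 0.09, DDIT3, the stress factor CHOP, by 0.04 ± 0.08, and CHAC1, which degrades glutathione, by 0.04 ± 0.09.

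The members farthest from 0 were SLC7A11, described above, and ASNS, which makes asparagine. ASNS was at 1650, 1711 and 1710 and then 1513 in the first experiment and at 2123, 2262 and 2121 and then 1493 in the second, both late arrays being lowest. Its change of -0.30 ± 0.09 did not pass (adjusted p = 0.098). PHGDH, the first enzyme of serine synthesis, was at -0.27 ± 0.06 (adjusted p = 0.051). Of 16 cytosolic tRNA synthetases 0 were called, with a median of -0.01.

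Over the same interval in high leucine, 4.26% of all genes fell and 4.21% rose. Of the 39 there, 25 fell and 1 rose, with a median of -0.45, and 10 of 16 tRNA synthetases fell. The differences between leucine levels passed for 16 and 7 of them, where 115 of 8280 genes (1.39%) and 184 of 13329 probe sets (1.38%) passed in all. ATF4 fell by 0.76 in high leucine, and the difference was 0.74 ± 0.08 (adjusted p = 0.00017, and 0.22 without the experiment term). For TRIB3 the difference was 1.18 ± 0.13 (adjusted p = 0.00021) and for DDIT3 0.58 ± 0.11 (adjusted p = 0.019), while for ASNS it did not pass (0.41 ± 0.12, adjusted p = 0.13). TRIB3 and ATF4 kept this call in all 16 fits that left out 1 array, and DDIT3 lost it in 3, at up to 0.16.

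**Figure D3:**
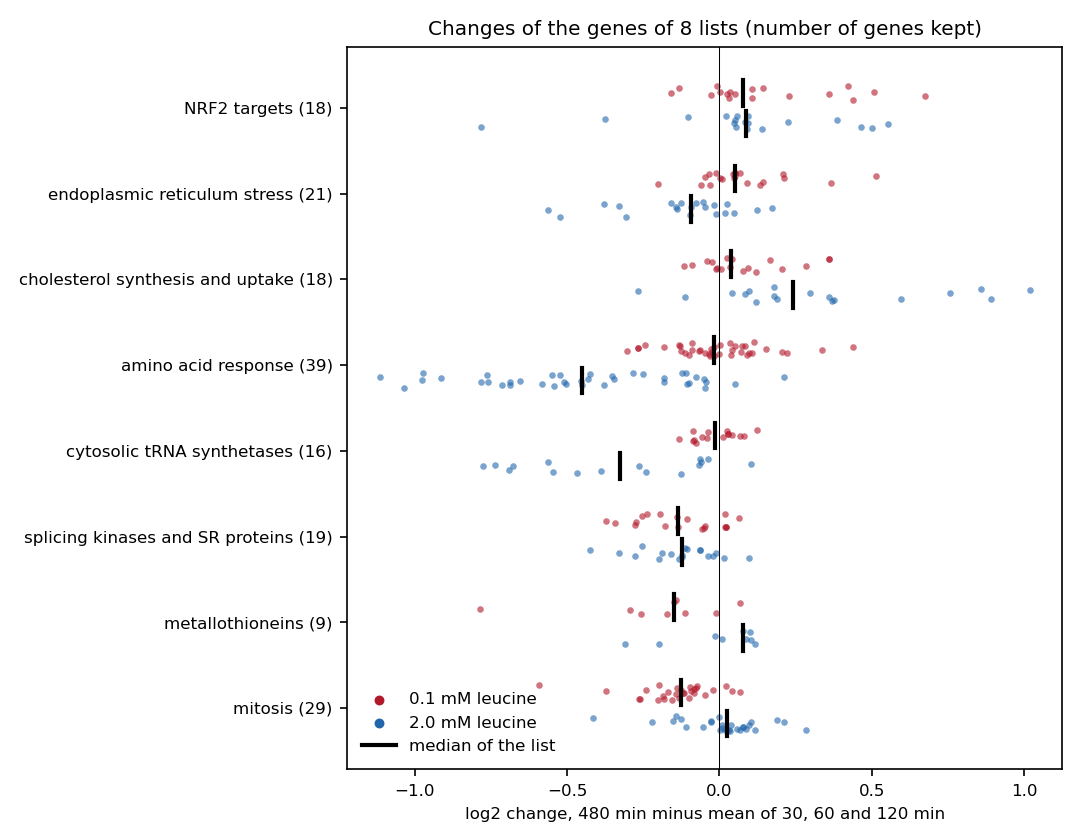
Log2 change from 30 to 120 min to 480 min for the genes of 8 lists in low (red) and high (blue) leucine, 1 point per gene, with the list median as a black bar and the number of genes in brackets. The amino acid response has medians of -0.02 in low and -0.45 in high leucine, and the NRF2 targets lie at 0.08 and 0.09.

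Immediate early genes, the transcription factors and phosphatases that follow a growth stimulus within minutes, were where the 2 experiments parted. Of 27 kept, 0 were called in low leucine, and the median was -0.14, with 0.01 in the first and -0.42 in the second experiment. EGR1 was at 1733, 1604 and 1035 and then 495.4 in the first experiment and at 3782, 5654 and 3327 and then 983.6 in the second. In each experiment the 480 min array was the lowest of those after 0 min. The early arrays were higher in the second experiment at each time, and the change of -1.58 ± 0.48 did not pass (adjusted p = 0.12). At 0 min EGR1 was at 1308 in the first and 462.4 in the second experiment.

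FOS was at 459.6, 428.4 and 452.2 and then 345.3 in the first experiment, a change of -0.29. In the second it was at 1564, 1669 and 517.3 and then 315.1, against 231.7 at 0 min. IER2 was at 1674, 1905 and 1543 and then 1616 in the first experiment, and at 4082, 6195 and 4381 and then 2295 in the second. JUN and DUSP1, a phosphatase of MAP kinases, had the same form, with peaks of 1913 and 6016 at 60 min in the second experiment. Their changes of -0.39 ± 0.16 and -0.41 ± 0.23 were not called. In high leucine EGR1 fell by 1.77 ± 0.48 (adjusted p = 0.032), and the difference between leucine levels did not pass (adjusted p = 0.95).

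**Figure D4:**
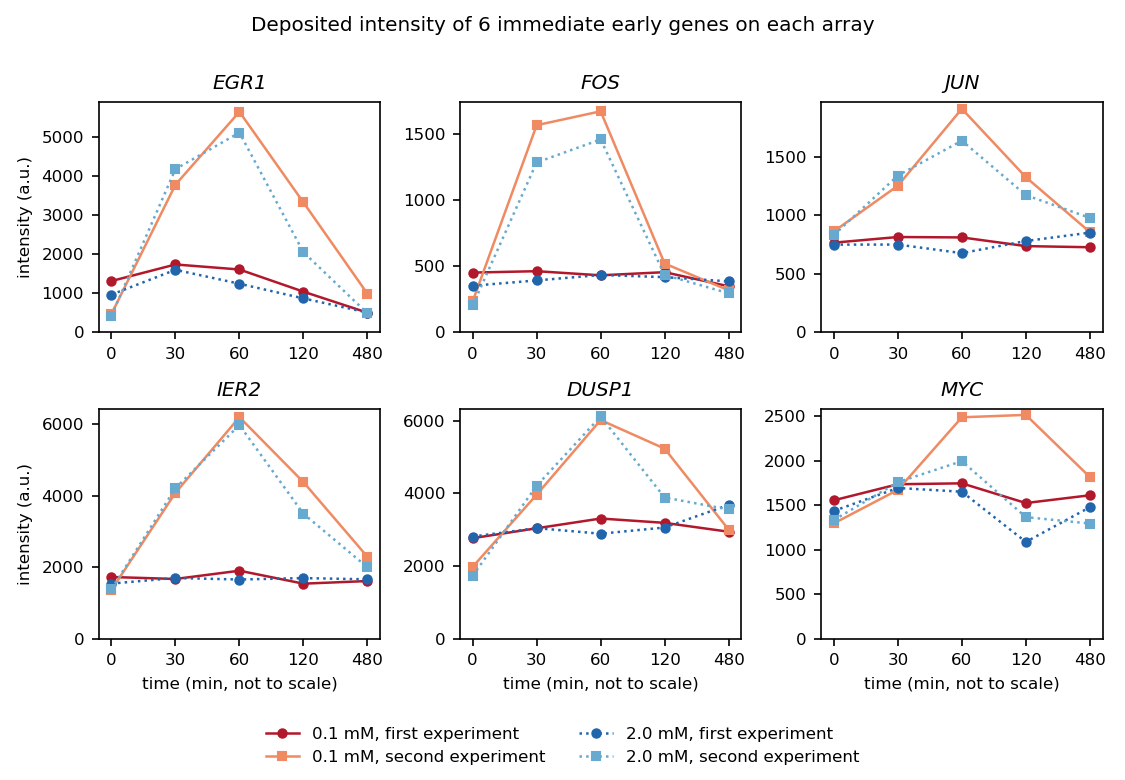
Deposited intensity (arbitrary units, axis from 0) of 6 immediate early genes on each of the 20 arrays, against time on an axis that is not to scale, with low leucine in solid red, high leucine in dotted blue, circles for the first and squares for the second experiment. The second experiment shows a peak at 30 to 60 min in EGR1, FOS and IER2 that the first experiment lacks in FOS and IER2.

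Related lists had few calls in low leucine, where 0.302% of all genes rose and 0.471% fell. Of 19 NF-kB and cytokine genes 1 fell, CCL2, with a median of -0.12. CXCL2 changed by -0.77 ± 0.23 (adjusted p = 0.11) and CXCL8 by -0.48 ± 0.13 (adjusted p = 0.087), chemokines that attract neutrophils. Of 13 MAP kinase feedback genes 1 rose, PHLDA2, and of 30 translation factors 1 rose, EIF4G1, the scaffold of the cap-binding complex, at 0.27 ± 0.06 (adjusted p = 0.046), a call lost in 13 of 16 fits with 1 array left out. EIF4G1 had a second probe set at 0.04.

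In 27 of the 38 lists no member was called in low leucine by its brightest probe set, and their medians ran from -0.14 to 0.10. These included 42 ribosomal proteins (median -0.02), 28 proteasome genes (0.00), 43 genes of oxidative phosphorylation (-0.05), 14 cytosolic heat shock genes (0.06) and 19 tubulin and actin genes (0.10). In high leucine 8 of those 14 heat shock genes and 14 of the 19 cytoskeletal genes rose, where 4.21% of all genes rose. HSPB1, a small heat shock protein, changed by 0.11 ± 0.07 in low leucine and rose by 0.88 in high leucine, and the difference passed (adjusted p = 0.00093). Of the 64 genes called in low leucine, 18 were on any list.

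More probe sets were called over the same interval in high leucine, 1170 of 13329 probe sets (8.78%), 616 higher and 554 lower. This count was 221 without the second high leucine array at 480 min and 169 without the experiment term. The low and high leucine changes are taken from different arrays, but all arrays were fitted together. The variance estimate of each probe set and the experiment term are therefore shared. The low leucine count of 106 became 68 without the first high leucine array at 60 min, and 151 without the first at 480 min. The overlap of calls between leucine levels is thus not independent agreement. Of the 25 genes that rose in low leucine, 15 also rose in high leucine, which is 60.0% of the former and 4.30% of the 349 that rose in high leucine. Of the 39 that fell, 13 also fell in high leucine, 33.3% of the former and 3.68% of 353. Over all genes, 4.21% rose and 4.26% fell in high leucine. The median change there was 0.26 for the 25 and -0.11 for the 39.

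A difference between leucine levels passed for 8 of these 64 genes, where it did so for 1.39% of all genes. The 64 were chosen by their low leucine change, which is itself part of that difference. DNAJB9 rose in low leucine alone among the 4 risen genes, and SQLE, MSMO1 and PRDX1 rose less in low than in high leucine. CEP15, DEPDC1, CCL2 and MED4 were the 4 fallen genes, with high leucine changes from 0.01 to 0.06.

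**Figure D5:**
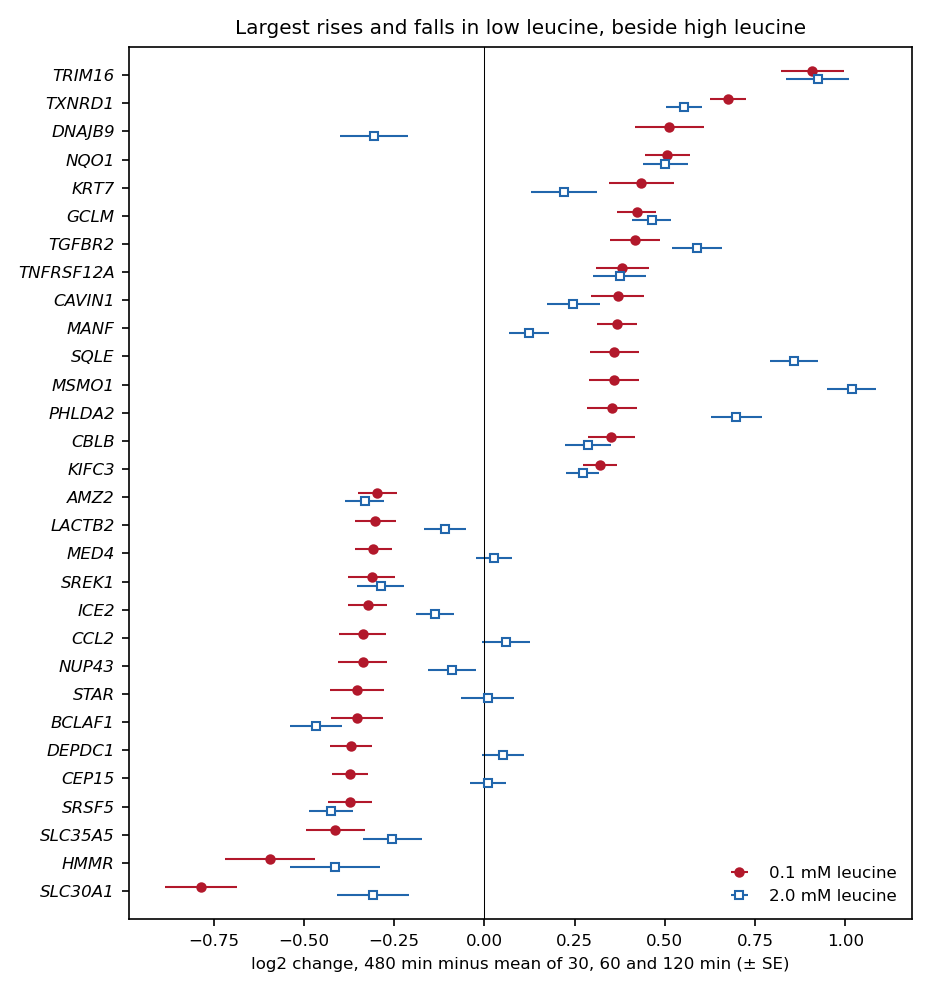
Log2 change from 30 to 120 min to 480 min in low (filled red) and high (open blue) leucine for the 15 largest rises and 15 largest falls called in low leucine; bars are ± SE, with 2 arrays at 480 min and 6 before in each leucine level. TRIM16, NQO1 and GCLM lie together in both, DNAJB9 lies on opposite sides of 0, and SQLE and MSMO1 lie higher in high leucine.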

How the data were processed

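The deposited values were linear intensity values of 22215 probe sets, in arbitrary units, as the series matrix gives them; the authors' summarisation, scaling and software are not given in the sources used here. A pseudocount of 165.2 was added (which pulls changes of weak probe sets towards 0), log2 taken, and the arrays quantile normalized. Probe sets at or above the 40th percentile of mean log2 were kept. Of all probe sets, 19065 had 1 symbol in the platform annotation, updated through RefSeq for 19053, 1043 had several and 2107 none; only the first were named. A gene was represented by its brightest kept probe set.

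All 20 arrays were fitted with limma 3.58.1 (R 4.3.3): 1 mean per group plus the experiment as a fixed term, 9 residual degrees of freedom, variances moderated along an intensity trend, tests two-sided, Benjamini-Hochberg adjustment over all 13329, threshold 0.05. ± is the standard error of this fit. The experiment named in each label pairs the arrays: differences between experiments correlated by 0.81 to 0.93 between groups, and the first principal component, 71.8% of variance, parted the experiments. The 3 contrasts were 480 min minus the mean of 30, 60 and 120 min in low leucine, the same in high leucine, and their difference.

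Genes named were the 15 largest rises and 15 largest falls called in low leucine with the same sign in both experiments, up to 4 called members of each of 38 gene lists, the 8 largest differences each way between leucine levels, and 28 fixed nutrient, stress and early genes, of which PER2 and CCND1 did not pass the filter, PER1 had only probe sets with several symbols, and a few more are not reported here. Other called probe sets, and list members named though not called, were chosen after their values were seen. The comparison and lists were chosen with earlier results of these data known. The fit was tested on simulated data. Alternatives were other pseudocounts, normalizations, filters, variance models, array weights, no experiment term, subsets of arrays or times, and leaving out each of 16 arrays.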

Additional observations from a re-analysis of the deposited data

Results flagged for a closer look

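A difference between leucine levels in the change from 30 to 120 min to 480 min passed the test (limma, adjusted p under 0.05) for 26 named genes. Values are low minus high leucine on the log2 scale, and a positive value means a higher change in low leucine. Amino acid response genes were SLC7A11 at 1.22, TRIB3 at 1.18, STC2, a secreted glycoprotein, at 1.18, MTHFD2, a mitochondrial one-carbon enzyme, at 0.91, VEGFA, the endothelial growth factor, at 0.90, CEBPG at 0.85, ATF4 at 0.74 and DDIT3 at 0.58. Genes of the endoplasmic reticulum were DNAJB9 at 0.82, XBP1 at 0.57 and HSPA5 at 0.51. CAMTA2, a transcription activator, differed by 1.02 and GFPT1, the entry enzyme of hexosamine synthesis, by 0.86. Of these 13, DNAJB9 alone was called in low leucine on its brightest probe set; the other 12 were called in high leucine, as falls.

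Negative differences were those of HSPB1 at -0.77 and HSPE1, a mitochondrial chaperonin, at -0.50, of TUBA1A, an alpha tubulin, at -0.65, and of LOXL1, a collagen cross-linking oxidase, at -0.58. Lipid genes were MSMO1 at -0.66, IDI1 at -0.59, FADS2, a fatty acid desaturase, at -0.59 and SQLE at -0.50. EIF4E, the cap-binding protein, differed by -0.56. The last 4, DEPDC1 at -0.42, CCL2 at -0.40, CEP15 at -0.38 and MED4 at -0.33, fell in low leucine. None of the 26 differences passed without the experiment term.

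Among the 6 low leucine arrays at 30 to 120 min, with each experiment centred on its own mean, FOS on the second experiment's 120 min array lay apart below the others, with a gap of 0.65 of the range, above the 95% critical value of Dixon's test for 6 samples. The test was run on 69 named genes, and FOS was the only 1 flagged. Chance gives such a gap in about 1 of 20 groups, so 1 flag among 69 genes is no more than chance would give. The 6 arrays were also taken at different times. In the second experiment FOS was at 1564, 1669 and 517.3 at 30, 60 and 120 min. Whether the gap follows time was not tested.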

How the results depend on the processing

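Among the named genes, for which alternatives were run gene by gene, no called value changed its sign. The counts of called probe sets in low leucine (106), high leucine (1170) and the difference (184) stayed within 1.5 times under other pseudocounts, normalizations and filters, variances without a trend, arrays of 1 leucine level only and 30 to 120 min pooled, with the exceptions given here. Without the replicate block (the experiment term) they were 1, 169 and 0, with 606 differences at an unadjusted p under 0.05. With array weights the low leucine count was 61 and the difference 109, and without the 0 min arrays the low leucine count was 319. With 1 probe set per gene the high leucine count was 710. Against 30 min alone the low leucine count was 14 and the difference 70; against 60 min alone the counts were 11, 755 and 53, and against 120 min alone 5, 417 and 31. The first experiment alone gave 11, 140 and 1, and the second 4, 355 and 8. Leaving out 1 array gave 18 to 151 in low leucine, 221 to 1211 in high leucine and 38 to 233 for the difference. The cause of these shifts was not tested. Some settings also leave fewer arrays or genes. With 2 arrays at 480 min, small changes cannot be resolved.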

Other observations

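Several further probe sets were called in low leucine for genes that lie on no list. RAB2A, a GTPase between the endoplasmic reticulum and the Golgi, rose by 0.34 ± 0.05 on a probe set other than its brightest, against 0.02 in high leucine, and the difference passed (limma, adjusted p = 0.033). NR3C2, the mineralocorticoid receptor, rose by 0.31 ± 0.06 and was at -0.04 in high leucine (adjusted p of the difference = 0.056). UGDH, which makes UDP-glucuronate, rose by 0.21 ± 0.04. Falls were those of HADH, an enzyme of mitochondrial fatty acid oxidation, by 0.36 ± 0.06 on a probe set other than its brightest, of MRPS33 and MRPL13, mitochondrial ribosomal proteins, by 0.28 and 0.27, and of HMGN3 and HMGN2, nucleosome-binding proteins, by 0.26 and 0.18.

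Start regions were found in the RefSeq table for 67 of 91 genes. The 91 were the named genes, the kept members of the NRF2 and metallothionein lists, and PRDX1. The antioxidant response core TGACNNNGC was in 17 of the 67 (25.4%) and in 13.6% of all promoters of that length. The metal response core TGCNCNC was in 46 (68.7%) against 55.2%, and the E-box CACGTG in 13 (19.4%) against 7.43%. The composite site TGATGNAAN was in 4 (5.97%) against 3.67%, and the cAMP element TGACGTCA in 2 (2.99%) against 1.98%. A wide form of the serum response element was in 40 (59.7%) against 56.2%. The sterol element TCACNCCAC was in 1 (1.49%) against 1.15%, and the ATF4 core TTGCATCA in 2 (2.99%) against 0.923%. Both strands were searched, and these shares are descriptions of letters over genes chosen by their expression or by list. The antioxidant and metal response cores were added after the values were seen. Their shares include the NRF2 and metallothionein list members whether called or not, so they do not measure enrichment among genes that changed.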
